A study of Homo sapiens with 6 samples.

Results

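The genes described here encode the DEAD-box and DEAH-box RNA helicases expressed in A549 cells, including DDX17, the helicase that was silenced, and its paralog DDX5. They were chosen by name, as the protein-coding genes of the read table with symbols of the form DDX or DHX followed by a number, together with EIF4A1, EIF4A2 and EIF4A3; DDX58, DDX60, DDX60L and DDX3Y were left out. This rule matched 55 genes, of which 51 had enough reads to be tested, among the 15615 genes tested of 29476 listed. DDX4, DDX25, DDX43 and DDX53 had too few reads for a test. DDX26B was matched by its older symbol, but its current name is INTS6L and it belongs with the Integrator complex rather than with the helicases.

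RNA helicases use ATP to pull apart RNA duplexes or to strip proteins from RNA. DEAD-box and DEAH-box enzymes are named after a sequence of amino acids in one of their conserved motifs, and they act at nearly every step of the life of an RNA, from splicing and export to ribosome assembly, translation and decay. DDX17 and DDX5 are close relatives that bind each other, act as cofactors of transcription, splicing and microRNA processing, and have overlapping functions in many cells, which raises the question of whether DDX5 or another helicase is expressed at a higher level when DDX17 is depleted.

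A549 is an established human lung adenocarcinoma line, here obtained from a national cell collection and transfected with siRNA by a lipid reagent. The siCtrl group (3 libraries) received a nontargeting siRNA, and the siDDX17 group (3 libraries) a single siRNA against DDX17; the labels describe the groups as control plasmid and DDX17 knockdown, whereas the methods of the study describe siRNA. Polyadenylated RNA was sequenced with a stranded kit. The methods state a harvest at 48 h for RT-qPCR only, and no time was given for the sequenced cells. With 1 siRNA for the target, effects of the sequence itself and effects of DDX17 loss cannot be told apart.

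The libraries held between 30658136 and 39182371 counted reads. The labels number the libraries as replicates, so p-values measure the spread between these libraries. In pairwise comparisons the siCtrl 1 library stood apart from the other controls, with a chi-square per gene of 20.35 and 25.57 against 5.826 between siCtrl 2 and siCtrl 3, and the calls that changed without it are given with the results. Of 13 A549 and lung epithelial markers, 8 were above 1 FPKM in every library, among them KRT8, KRT18, CDH1, NQO1 and AKR1B10, whereas SFTPB and SFTPC, the surfactant genes of alveolar type II cells, were at 0.1 FPKM or less, NKX2-1 was at 0.16 or less, NAPSA was between 0.3 and 0.85, and EPCAM between 0.34 and 1.14. Of 10 markers of other cell types, 8 were listed and 0 of these were above 1 FPKM in every library. CD68 was between 0.43 and 1.09 FPKM, and the summed level of the 8 was 0.92 to 1.16 FPKM in siCtrl and 1.23 to 1.55 FPKM in siDDX17.

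The DDX17 siRNA site and its counterpart in DDX5 are shown because they bear on whether the paralog could have been hit as well. Both are 19 bases of coding sequence in GENCODE release 44, in exon 11 of 13 of each gene. The site in DDX17 lies on the minus strand of GRCh38 at chr22:38492080-38492098, and the homologous stretch of DDX5 on the minus strand at chr17:64502034-64502052. Capitals mark the bases of DDX5 that differ from DDX17:
DDX17: gcacccatccttattgcta
DDX5: gcTccTatTctGattgcta
The 4 differences, counted from the 5′ end of the DDX17 site, are A3T, C6T, C9T and T12G. This was the closest match to the site in any other helicase of the group. The next closest matches, in DDX18, DDX19A, DDX23, DHX30 and DHX33, differed at 5 bases.

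DDX17 transcripts (chr22:38483438-38507660, minus strand) were strongly depleted. Read levels, as CPM after TMM scaling, a read count relative to library size,, were 177, 184 and 206 in the siCtrl libraries and 32.1, 30.8 and 30.4 in the siDDX17 libraries. All siDDX17 libraries lay far below all siCtrl libraries. The log2 fold change, siDDX17 minus siCtrl, was -2.60 (SE 0.0685, adjusted p = 5.89e-11 by the quasi-likelihood F-test of edgeR, adjusted over all tested genes by the Benjamini-Hochberg method, as throughout), a change of -83.5%. In RNA from whole cultures, fewer cells with the transcript and less transcript per cell cannot be told apart. On the deposited FPKM scale, which is per length and allows levels of different genes to be compared, DDX17 ranked 11 among the 51 genes in siCtrl and 38 in siDDX17.

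DDX5 transcripts (chr17:64498254-64508199, minus strand) did not pass the test in either direction. Their levels were 380, 410 and 418 CPM in siCtrl and 380, 355 and 384 CPM in siDDX17, so the groups overlapped. The log2 fold change was -0.11 (SE 0.0594, adjusted p = 0.142). Its 95% interval allowed a rise of at most 1.24% and a change downwards of as much as -15.2%. Leaving aside EIF4A1, whose level cannot be read from its own entry (given with the translation helicases), DDX5 was the most abundant helicase of the group per length in both conditions, with 133 ± 5.04 FPKM in siCtrl and 135 ± 7.29 FPKM in siDDX17 (SD, n = 3). Its sign depended on the scaling, since with library size alone the log2 fold change was 0.01 and on FPKM 0.02. Without siCtrl 1, the control with the lowest DDX5 level, the log2 fold change was -0.16 and passed the test as a decrease (adjusted p = 0.00477). No setting gave a rise that passed the test.

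The coding sequences of DDX17 and DDX5 were 70.7% identical over 1816 aligned bases, but their transcripts shared no window of 50 identical bases and had a longest identical run of 26 bases, so few reads could fit both genes. CEP95, which overlaps DDX5 on the opposite strand, was at 10.2 CPM in siCtrl and 15.6 CPM in siDDX17, a small fraction of the DDX5 level. Added together, DDX17 and DDX5 gave 163, 167 and 178 FPKM in siCtrl and 145, 133 and 147 FPKM in siDDX17. The sum was lower by -27.8 FPKM, or -16.4%, with no overlap between the groups (exact permutation test, two-sided, p = 0.1, the smallest p that 3 against 3 libraries can give). The sum of TMM-scaled CPM, which is not per length, was lower by -31.7% (p = 0.1 by the same exact test). DDX5 supplied most of the summed transcript in both conditions.

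**Figure D1:**
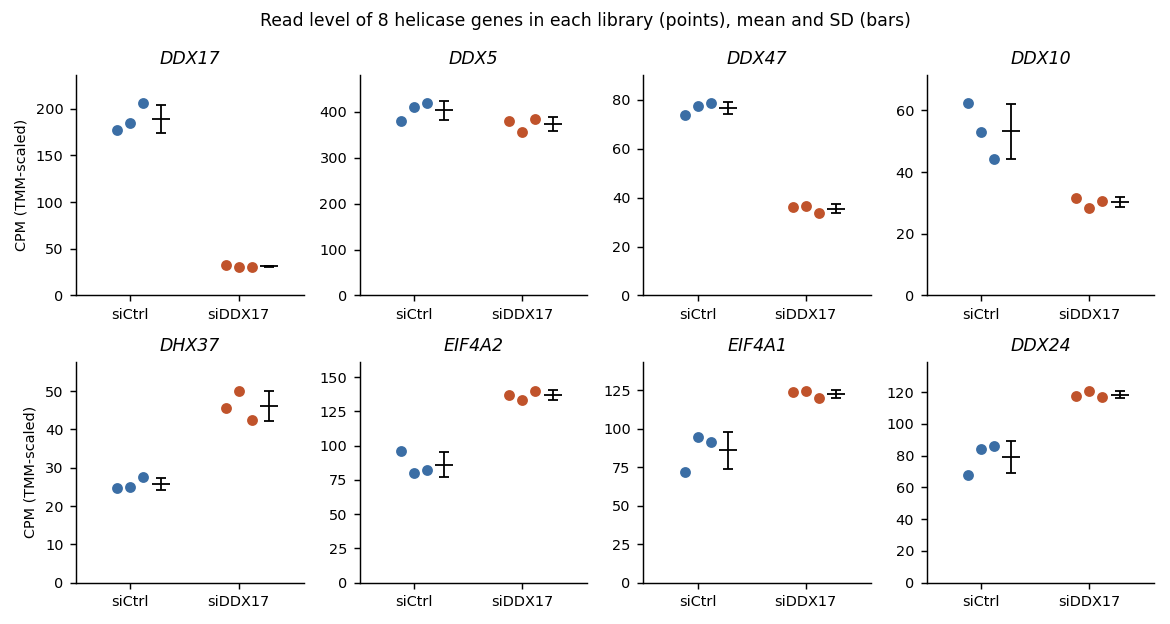
Read level (CPM after TMM scaling, linear axis from 0) of 8 helicase genes in the 3 siCtrl and 3 siDDX17 libraries (points), with the mean and SD beside each group. DDX17 falls from a mean of 189 to 31.1 CPM, the DDX5 groups overlap, and the other 6 genes, which were all called, show no overlap between groups.

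Among the 50 other tested genes, 12 (24.0%) were higher in siDDX17 and 15 were lower at an adjusted p under 0.05, and 23 were not called. These 27 calls made up 54.0% of the genes, against 48.8% of all tested genes, of which 24.5% were higher and 24.3% were lower. The number of helicases that rose was thus near the background. Only 4 of the 50 (8.0%) passed a fold change of 1.5 as well, against 20.4% of all tested genes (11.9% higher and 8.55% lower). DHX37 and EIF4A2 were higher past that limit, and DDX47 and DDX10 were lower. The median log2 fold change of the 50 genes was -0.07, beside 0.0051 for all tested genes, and the values ranged from -1.11 to 0.84. The libraries of the groups did not overlap for 29 of the 50 (58.0%), against 56.5% of all tested genes. Without siCtrl 1, the helicases called lower numbered 21 (42.0%, against 27.4% of all tested genes), and 11 were called higher.

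Most of the values were precise enough to bound a change. The 95% interval lay below a 1.5-fold rise for 43 of the 50 genes, and within 1.5-fold in either direction for 38. Of the 23 genes not called, 21 had an interval within 1.5-fold. The 2 exceptions were DHX58, an RNA sensor without signalling domains, and DDX26B, which were both below 1 CPM in every library and had SEs of 0.502 and 0.383 on the log2 scale. DHX58 was at 0.0886, 0.524 and 0.213 CPM in siCtrl and at 0.285, 0.274 and 0.234 CPM in siDDX17, so no statement on its change was possible at this depth.

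**Figure D2:**
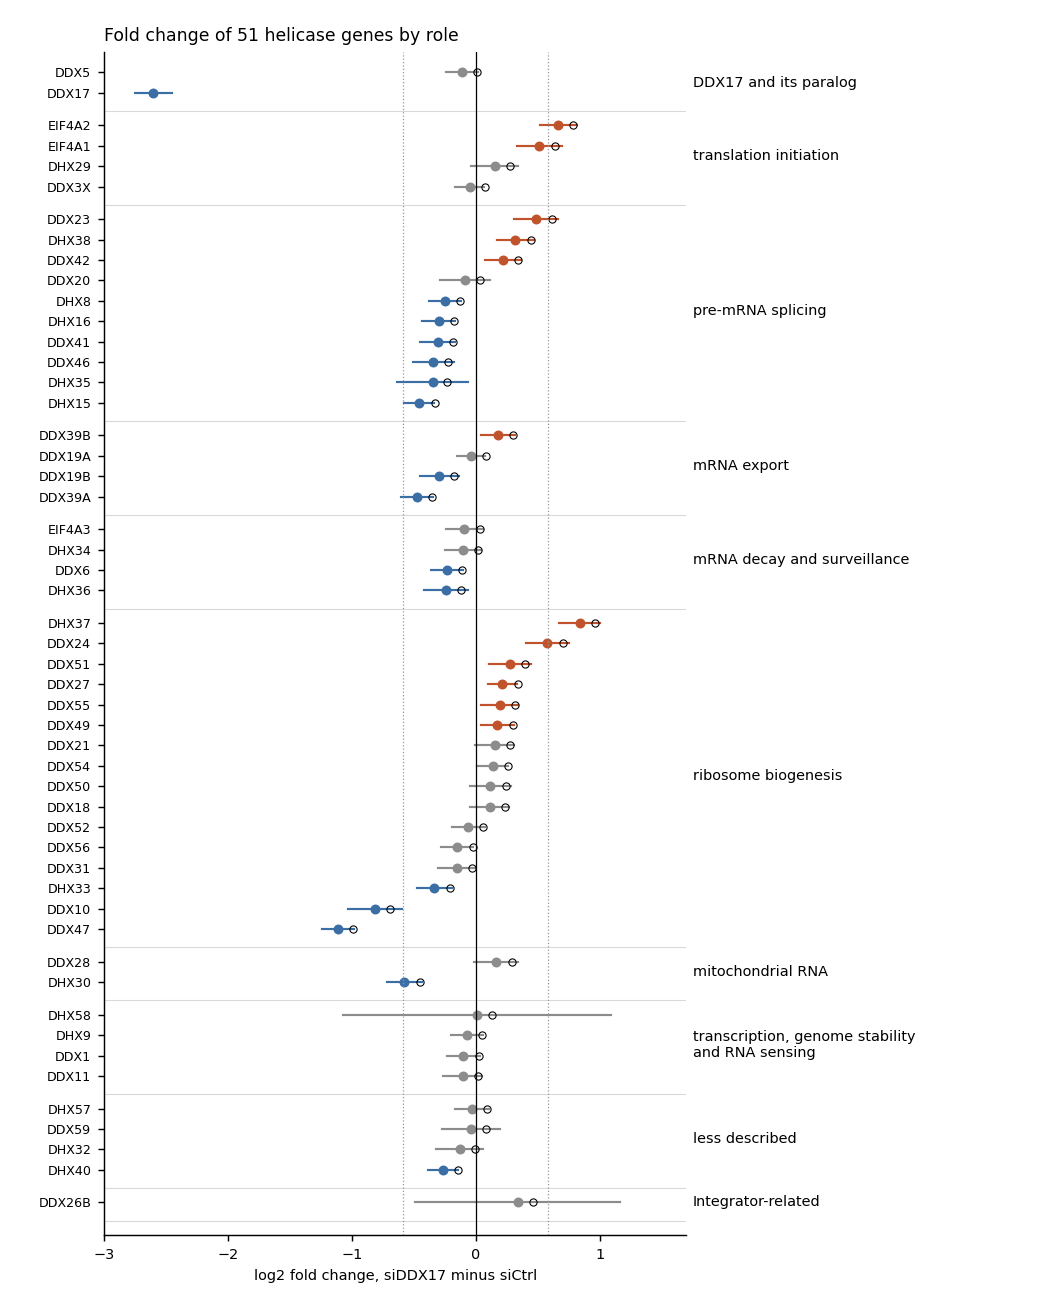
Log2 fold change (siDDX17 minus siCtrl) of the 51 tested genes by role, with 95% intervals. Filled circles are coloured where the adjusted p is under 0.05 (red higher, blue lower) and grey otherwise, open circles show library-size scaling, and dotted lines mark 1.5-fold. DDX17 stands at -2.60, DDX47 and DDX10 lie below the lower line, and DHX37 and EIF4A2 above the upper line.

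Helicases of translation initiation were higher or not called. EIF4A2, an ATP-dependent helicase of the cap-binding complex that unwinds the 5′ ends of mRNAs, was at 96.4, 80.3 and 81.9 CPM in siCtrl and at 137, 133 and 140 CPM in siDDX17. The siDDX17 libraries were all above the controls, also above siCtrl 1, the highest of them. EIF4A2 rose with a log2 fold change of 0.67 (SE 0.0701, adjusted p = 4.79e-06), or 1.59-fold. RFC4, which overlaps it on the opposite strand, moved the other way, with a log2 fold change of -0.71.

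EIF4A1, the second enzyme of that complex, needs a caution on its level. Its own entry held 71.9, 94.3 and 91.3 CPM in siCtrl and 124, 125 and 120 CPM in siDDX17, and it rose with a log2 fold change of 0.51 (SE 0.0846, adjusted p = 0.000229). However, the count table also holds a readthrough entry, SENP3-EIF4A1, that overlaps EIF4A1 (chr17:7572824-7579006, plus strand) on the same strand. Between 93.8% and 94.5% of the reads of both entries were assigned to the readthrough in each library. SENP3-EIF4A1 was at 1234, 1431 and 1415 CPM in siCtrl and at 2023, 2076 and 2024 CPM in siDDX17, with a log2 fold change of 0.59 (SE 0.0657, adjusted p = 8.53e-06). SENP3, the upstream gene, was lower, with a log2 fold change of -0.47 (SE 0.0522, adjusted p = 8.25e-06). Both entries that cover EIF4A1 therefore rose, but the level of EIF4A1 and its rank among the helicases cannot be read from its own entry. DDX3X, which helps ribosomes through structured 5′ ends, had a log2 fold change of -0.05 (adjusted p = 0.485), with library size alone 0.07. DHX29, which assists scanning by the small subunit, was at 0.15 (adjusted p = 0.172).

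The helicases of ribosome biogenesis included both ends of the range. Of 16 tested, 6 were higher, 3 were lower and 7 were not called, with a median log2 fold change of 0.13. These were 37.5% higher and 18.8% lower, against 24.5% and 24.3% of all tested genes. DDX47 (chr12:12813316-12829981, plus strand), a nucleolar enzyme of early pre-rRNA processing, was at 73.9, 77.4 and 78.5 CPM in siCtrl and at 36.2, 36.7 and 33.5 CPM in siDDX17. It had the largest decrease after DDX17 itself, with a log2 fold change of -1.11 (SE 0.0600, adjusted p = 1.42e-08) and a change of -53.7%. Its level per length went from 38.0 ± 0.88 to 19.2 ± 0.738 FPKM (SD, n = 3), and its rank among the helicases from 10 to 20. DDX10, a nucleolar helicase of small-subunit assembly, was at 62.3, 53.0 and 44.3 CPM in siCtrl and at 31.5, 28.4 and 30.8 CPM in siDDX17. The controls were spread widely, with siCtrl 1 the highest, but all lay above the siDDX17 libraries, and DDX10 fell by 0.81 on the log2 scale (SE 0.101, adjusted p = 2.08e-05). DHX33, which acts in ribosomal RNA synthesis, was also lower, at a log2 fold change of -0.33 from 49.6 CPM in siCtrl. C1QBP, which overlaps DHX33 on the same strand, was at 542 CPM in siCtrl and 490 CPM in siDDX17, a log2 fold change of -0.14. Whether its reads entered the DHX33 value was not tested.

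DHX37 (chr12:124946825-124989131, minus strand), which releases the U3 small nucleolar RNA from the pre-ribosome, had the largest increase. Its levels were 24.6, 25.0 and 27.5 CPM in siCtrl and 45.7, 50.1 and 42.4 CPM in siDDX17. All siDDX17 libraries were above all controls, and the log2 fold change was 0.84 (SE 0.0761, adjusted p = 1.25e-06), or 1.79-fold. DDX24, a nucleolar helicase of large-subunit assembly, was at 67.8, 84.1 and 85.9 CPM in siCtrl and at 118, 121 and 117 CPM in siDDX17. Its log2 fold change was 0.58 (SE 0.0787, adjusted p = 4.74e-05), just under the 1.5-fold limit. The other 4 that rose, DDX51, DDX27, DDX55 and DDX49, had log2 fold changes between 0.18 and 0.28. Of the 6 fits that left out 1 library, DDX55 lost its call in 5, DDX49 in 3 and DDX51 in 1. DDX56 was not called at -0.15 (adjusted p = 0.0545), but it was called lower with RLE scaling, in DESeq2, without siDDX17 2 and without siCtrl 1 (-0.19, adjusted p = 0.00227). With the replicate number as a block it was called lower as well (-0.15, adjusted p = 0.0429).

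Among the splicing helicases 6 of 10 were lower, 3 were higher and 1 was not called, with a median log2 fold change of -0.27, where 24.3% of all tested genes were lower and 24.5% higher. DHX15, which takes spent spliceosomes apart, was at 93.5, 88.6 and 92.2 CPM in siCtrl and at 67.6, 63.7 and 68.8 CPM in siDDX17. It fell by 0.45 on the log2 scale (SE 0.0562, adjusted p = 2.06e-05), with no overlap between groups. DHX8 and DHX16, which drive later and earlier rearrangements of the spliceosome, DDX41, DDX46 and DHX35 were the others that were lower, between -0.35 and -0.25. DHX35 was at 13.0, 10.4 and 8.67 CPM in siCtrl and at 8.85, 7.54 and 8.77 CPM in siDDX17. Its groups overlapped, and its call (log2 fold change -0.35, adjusted p = 0.0441) was lost in 5 of the 6 fits that left out 1 library, among them that without siCtrl 1 (-0.19, adjusted p = 0.147). It was also lost under upper quartile scaling, with library size alone and on FPKM.

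The 3 splicing helicases that rose were DDX23, DHX38 and DDX42. DDX42 had a log2 fold change of 0.22 (adjusted p = 0.0160) and kept its call in 4 of the 6 fits that left out 1 library. Its call was lost without siCtrl 3 and without siDDX17 1. DDX23, which exchanges the small nuclear RNA at the 5′ splice site, was at 63.1, 77.7 and 82.3 CPM in siCtrl and at 105, 105 and 102 CPM in siDDX17. The control range was wide, with siCtrl 1 the lowest, yet all siDDX17 libraries were above it, and the log2 fold change was 0.49 (SE 0.0819, adjusted p = 0.000276). DHX38, which acts between the catalytic steps of splicing, was at 37.2, 40.8 and 43.4 CPM in siCtrl and at 49.1, 53.0 and 49.5 CPM in siDDX17, a log2 fold change of 0.32 (adjusted p = 0.00155). Whether the direction of change went with the step of splicing at which a helicase acts was not tested.

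The export helicases DDX39A and DDX39B, paralogs that load mRNA export factors, moved in opposite directions. DDX39A was at 156, 173 and 170 CPM in siCtrl and at 117, 123 and 120 CPM in siDDX17, and fell by 0.47 on the log2 scale (SE 0.0584, adjusted p = 2.02e-05). DDX39B was at 165, 181 and 191 CPM in siCtrl and at 200, 210 and 198 CPM in siDDX17, a log2 fold change of 0.18 (SE 0.0631, adjusted p = 0.0325). Without siCtrl 1 the log2 fold change of DDX39B was 0.11. The DDX39B call was lost in 5 of the 6 fits that left out 1 library, with adjusted p-values from 0.0521 to 0.120. Per length, the 2 genes together held 174 ± 8.30 FPKM in siCtrl and 171 ± 3.16 FPKM in siDDX17 (SD, n = 3; exact permutation test, two-sided, p = 0.6). The sum of their TMM-scaled CPM went from 346 to 322 CPM, or by -6.7% (p = 0.2 by the same exact test). The coding sequences of DDX39A and DDX39B were 80.0% identical, and no window of 50 bases was shared.

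DDX19A and DDX19B, which release mRNA from export factors at the nuclear pore, cannot be separated fully. Their transcripts held an identical run of 377 bases, and 24.6% of the 50-base windows of DDX19A were present in DDX19B. DDX19B was lower (log2 fold change -0.30, adjusted p = 0.00455), and DDX19A was at -0.04 (adjusted p = 0.556). AARS, which overlaps DDX19B on the opposite strand, was at 322 CPM in siCtrl and 259 CPM in siDDX17, a log2 fold change of -0.31. DDX19B itself was at 34.4 CPM in siCtrl. The use of strand in counting is not known, and whether AARS reads entered the DDX19B value was not tested. With library size alone DDX19B was at -0.17 and not called, and DDX19A was at 0.08.

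Of the 4 helicases of mRNA decay and surveillance, 0 were higher and 2 were lower, where 24.5% of all tested genes were higher and 24.3% lower. DDX6, which represses translation and promotes decapping, was at 52.2, 52.1 and 54.4 CPM in siCtrl and at 46.5, 42.1 and 46.4 CPM in siDDX17, a log2 fold change of -0.23 (adjusted p = 0.00613). With library size alone DDX6 was at -0.11 and was not called. DHX36, which unwinds G-quadruplexes, was at -0.24 (adjusted p = 0.0296), with overlapping groups. It was at -0.12 with library size alone (adjusted p = 0.328) and at -0.155 without siCtrl 1, and its call was lost on FPKM, under upper quartile scaling and in 2 of the 6 fits that left out 1 library. EIF4A3, the helicase core of the exon junction complex, was at 94.2 ± 7.88 FPKM in siCtrl and 96.7 ± 0.737 FPKM in siDDX17 (SD, n = 3). On counts, the log2 fold change of EIF4A3 was -0.09 (adjusted p = 0.290), with library size alone 0.03, and without siCtrl 1 it was -0.18 and passed the test (adjusted p = 0.00166).

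The mitochondrial helicases DHX30 and DDX28, which both assist assembly of the mitochondrial ribosome, had log2 fold changes of opposite sign. DHX30 was at 86.9, 94.8 and 102 CPM in siCtrl and at 62.2, 66.7 and 61.0 CPM in siDDX17. It fell by 0.58 on the log2 scale (SE 0.0667, adjusted p = 1.13e-05), just short of the 1.5-fold limit and with no overlap. DDX28 was at 0.17 (adjusted p = 0.112) and was called higher with library size alone (0.29, adjusted p = 0.00882).

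The helicases of transcription, genome stability and RNA sensing gave 0 calls in 4 genes, where 48.8% of all tested genes were called. DHX9, DDX1 and DDX11 had log2 fold changes of -0.07, -0.10 and -0.10 with SEs of at most 0.0735. With library size alone they were at 0.0531, 0.0249 and 0.0185. DDX11, a DNA helicase that acts in sister chromatid cohesion, shares 31.4% of its 50-base windows with the pseudogene DDX12P, so its reads are uncertain. Among the 4 less described genes, DHX40 was lower (log2 fold change -0.26, SE 0.0562, adjusted p = 0.00157), and DHX57, DDX59 and DHX32 were not called.

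By name, 8 of the 16 DHX genes (50.0%) were lower and 2 (12.5%) were higher, with a median log2 fold change of -0.18. Of the 34 genes with DDX or EIF4A symbols, 7 (20.6%) were lower and 10 (29.4%) were higher, with a median of -0.04. Of all tested genes, 24.3% were lower and 24.5% were higher, with a median of 0.0051. With library size alone, DHX8, DHX35, DHX36 and DHX40 were no longer called lower, nor were DDX6 and DDX19B of the other group. The difference between these groups of genes was not tested.

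**Figure D3:**
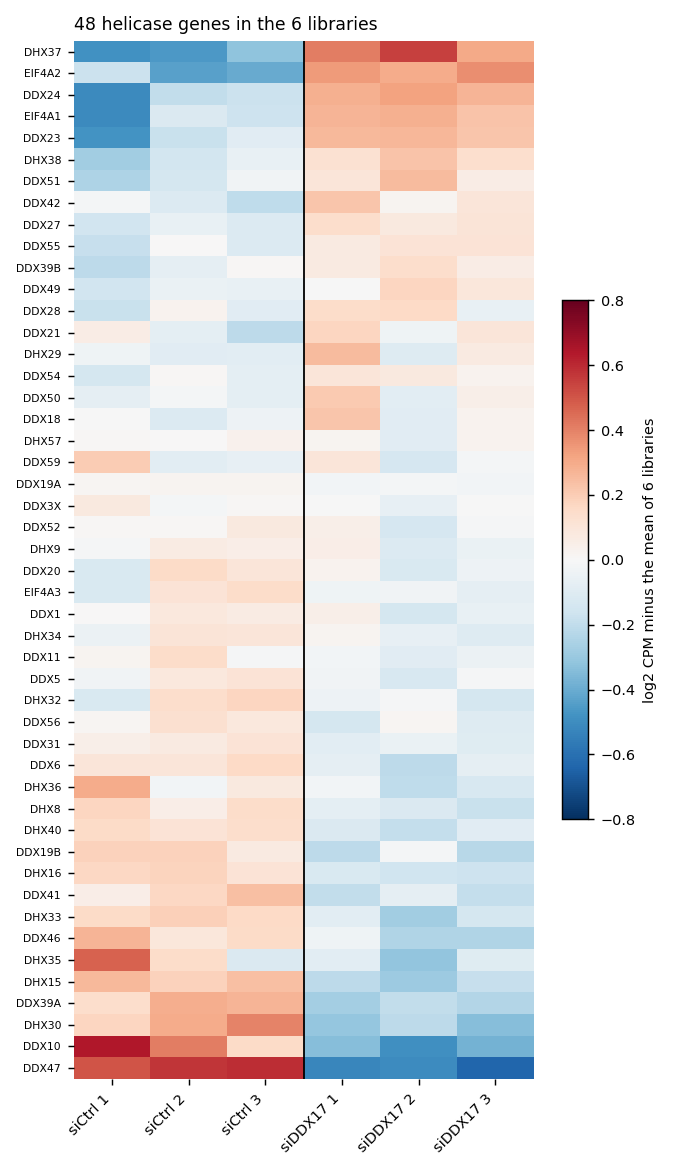
Log2 CPM of 48 helicase genes in each of the 6 libraries, centred on the mean of the 6, in order of log2 fold change (red above the mean, blue below; DDX17 and the scarce DHX58 and DDX26B are left out). DHX37 and EIF4A2 at the top and DDX10 and DDX47 at the bottom separate the groups, and the siCtrl 1 column differs from the other controls for DDX24, EIF4A1, DDX23, DHX35 and DDX10.

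The siCtrl 1 library was visible in the helicases. It was the lowest of the controls for 28 of the 50 genes and the highest for 15, but the shares over all tested genes were not determined. Besides the scarce DHX58 and DDX26B, it lay farthest from the mean of the other controls for EIF4A1, DDX23 and DDX24, by -0.37, -0.34 and -0.33 on the log2 scale, and for DDX10 and DHX35, by 0.36 and 0.45. Without siCtrl 1 the log2 fold changes were 0.39 for EIF4A1, 0.37 for DDX23, 0.47 for DDX24 and -0.69 for DDX10, and all 4 kept their call. The calls of DDX39B, DDX55 and DHX35 were lost in that fit. DDX21 was gained as higher, and DDX1, DDX5, DDX31, DDX56, DHX32, DHX34 and EIF4A3 were gained as lower. In all 6 fits that left out 1 library, 7 genes were called higher (DHX37, EIF4A2, DDX24, EIF4A1, DDX23, DHX38 and DDX27) and 13 were called lower. Those called lower included DDX6, DDX19B, DHX8 and DHX40, which were not called with library size alone. The share of all tested genes that kept a call in all 6 fits was not determined. Whether this balance of directions was particular to the helicases was therefore not tested.

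The scaling of the libraries set the balance of the directions. With library size alone, the median log2 fold change of all tested genes was 0.13, and 18 helicases (36.0%) were called higher and 9 lower, against 33.5% and 16.0% of all tested genes. Of the helicases called, 44.4% were higher under TMM scaling and 66.7% with library size alone. The 12 genes called higher under TMM scaling were called higher under all scalings, whereas 9 of the 15 called lower were lower under all of them. The other 6 were DDX6, DDX19B, DHX8, DHX35, DHX36 and DHX40, whose log2 fold changes with library size alone lay between -0.23 and -0.11. Under TMM scaling the median of all tested genes was 0.0051, so library size alone moved genes upwards in general. The share of all tested genes that kept a call under all scalings was not determined. Whether this contrast was particular to the helicases was therefore not tested. The share of helicases called higher was thus near that of all tested genes under both scalings.

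Levels per length spanned a wide range, from below 1 FPKM for DHX58 and DDX26B to 133 FPKM for DDX5 in siCtrl. The most abundant were DDX5, DDX39A, EIF4A3, DDX39B and DDX56, leaving the EIF4A1 locus aside. DDX39A at 97.7 ± 3.60 and EIF4A3 at 94.2 ± 7.88 FPKM (SD, n = 3) did not differ beyond their spread in siCtrl, while DDX5 was above them and DDX39B, at 76.1 ± 4.97 FPKM, and DDX56, at 59.8 ± 1.02 FPKM, were below. In siDDX17, DDX39A was at 77.0 ± 1.71 FPKM, below EIF4A3 and DDX39B, which were at 96.7 ± 0.737 and 94.1 ± 1.86 FPKM. The summed FPKM of the 50 genes was 1099, 1117 and 1151 in siCtrl and 1217, 1184 and 1209 in siDDX17, a difference of 7.2% (exact permutation test, two-sided, p = 0.1, the smallest possible). The sum of TMM-scaled CPM over the same genes went the other way, from 3645 to 3578 CPM, or by -1.83% (p = 0.3 by the same exact test). The FPKM values are normalized for length and library size, so these sums differ in scaling as well as in length. The part of each in the opposite signs was not tested. With SENP3-EIF4A1 added, an addition chosen after the data were seen, the FPKM sum went from 1476 to 1784.

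**Figure D4:**
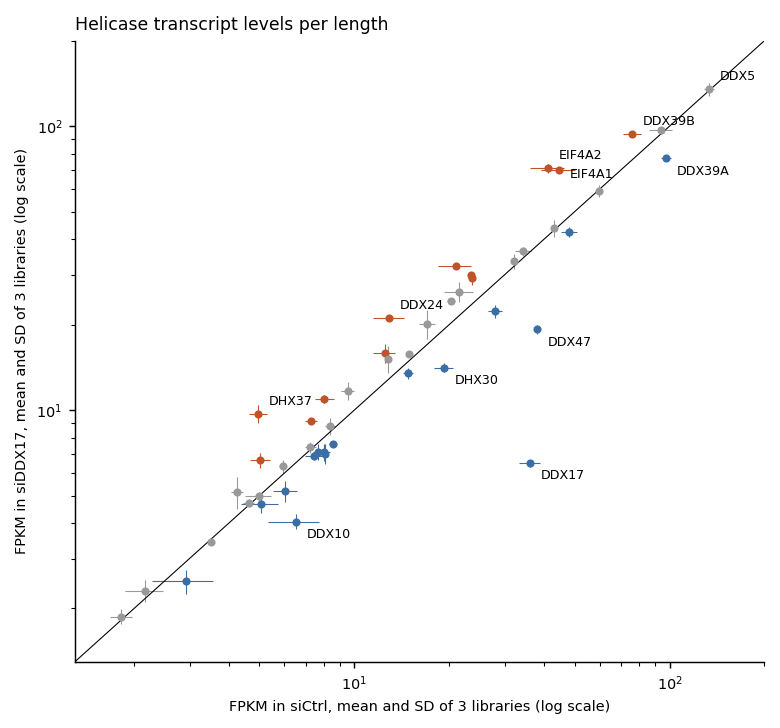
Deposited FPKM of 49 helicase genes (mean and SD of 3 libraries, log axes) in siCtrl and siDDX17, with the line of equal levels; colours mark genes called higher (red) or lower (blue) in the count test, and DHX58 and DDX26B lie off the axes. DDX5 lies on the line at 133 and 135 FPKM, and DDX17 lies farthest below it, at 36.1 and 6.50 FPKM; the point of EIF4A1 omits the reads assigned to SENP3-EIF4A1.

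Bases 2 to 8 of each siRNA strand form its seed, through which small RNAs recognise mRNAs, and matches to the seeds were searched in the 3′ UTRs of the helicases, on the strand of the mRNA. For the antisense strand of siDDX17 the match is TATTGCT, and 5 of 50 helicases (10.0%) held it, against 14.5% of 12987 genes. These 5 are shown because DDX5 is among them; capitals mark the seed match, and positions are from GENCODE release 44 on GRCh38.
DDX5: catgggttTATTGCTagaaagat
DHX36: ttttatttTATTGCTacttatct
DDX20: agtaatatTATTGCTgtggagtt
DDX42: tgagatggTATTGCTaaatttaa
DDX51: acctcacaTATTGCTggtgggaa
They lie at chr17:64498819-64498841 (minus strand), chr3:154274946-154274968 (minus), chr1:111767259-111767281 (plus), chr17:63819060-63819082 (plus) and chr12:132138257-132138279 (minus). Of the 5 genes, DDX42 and DDX51 were higher, DHX36 was lower, and DDX5 and DDX20 were not called. Their median log2 fold change was -0.09, beside -0.06 for the helicases without the match. Over all genes the median was -0.03 with the match and -0.0001 without it. The match to the sense strand, ATGGGTG, was present in 0 of 50 helicases and in 10.5% of genes. Of the control siRNA, the match to the antisense strand, TGTCACG, was present in DHX33 alone among the helicases (3.07% of genes), and that to the sense strand, TCGGAGA, in none of the 50 (2.13% of genes). Over all genes the median log2 fold change was 0.23 with the TCGGAGA match and -0.0087 without it, a difference that was not tested.

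The genes that work with these helicases were examined from lists of partners and cofactors. Of 110 tested, 26 (23.6%) were higher and 39 (35.5%) lower, and 10 (9.09%) passed a fold change of 1.5. Of all tested genes, 24.5% were higher, 24.3% were lower and 20.4% passed that fold change, and the counts of each list stand against the same shares. In the microRNA machinery, in which DDX17 and DDX5 assist the Microprocessor, 4 of 7 were lower and 1 was higher. DROSHA, its nuclease, rose with a log2 fold change of 0.72 (adjusted p = 3.27e-06), whereas DGCR8, the RNA-binding partner of DROSHA, was at -0.78 (adjusted p = 1.90e-06) and AGO2, the slicer of small RNA complexes, was at -1.12 (adjusted p = 1.80e-08). XPO5 and TARBP2 were at -0.47 and -0.35.

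Partners did not follow their helicases in a uniform way. EIF4G1, the scaffold on which EIF4A acts, was at a log2 fold change of -0.72 (adjusted p = 2.18e-07), while both EIF4A genes rose, and its relative EIF4G3 was at 0.39; in all 4 of 11 translation initiation partners were higher and 3 lower. GLE1, the activator of DDX19 at the nuclear pore, was at 0.86 (adjusted p = 5.03e-07), and THOC7, a subunit of the complex that DDX39B joins, was at 0.72, whereas THOC3 of the same complex was at -0.48. Of the 20 partners in the exon junction and export list, 11 were lower and 5 higher. Among 10 partners of DDX6, DCP2, the decapping enzyme, was at 0.83 and EDC4, its scaffold, at -0.59, with 3 higher and 4 lower in all.

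In the spliceosome list, 7 of 20 were lower and 4 higher. GEMIN2, which acts with DDX20 in assembly of small nuclear ribonucleoproteins, was at -0.80 (adjusted p = 1.46e-05), and CRNKL1 was at 0.38. The G-patch proteins, cofactors that switch on DHX15 and other DEAH-box helicases, included 3 lower and 1 higher of 10, with SUGP1 at 0.43 and GPATCH4 at -0.36. Of 20 ribosome biogenesis factors, 5 were lower and 3 higher. BOP1, a factor of large-subunit assembly, had the largest decrease there at -1.07 (adjusted p = 1.80e-08), and POLR1B, a subunit of RNA polymerase I, was at 0.46. Of 16 RNA helicases outside the DDX and DHX names, 5 were higher and 3 were lower, with ZNFX1 at 0.51 and IGHMBP2 at -0.38, and 0 passed 1.5-fold. ZNFX1 overlaps DDX27 on the opposite strand.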

How the data were processed

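The authors mapped trimmed reads to GRCh38 with TopHat2 and deposited raw counts of uniquely mapped reads per gene, and FPKM values normalized for length and library size, for 3 siCtrl and 3 siDDX17 libraries. The counting program, the annotation version and the use of strand are not given in the sources used here, so overlapping and antisense genes are uncertain. The counts were tested with edgeR 4.0.16 in R 4.3.3 (filterByExpr, TMM scaling, glmQLFit and glmQLFTest, Benjamini-Hochberg adjustment over 15615 genes); an adjusted p under 0.05 made a call, and a fold change of 1.5 was a second limit. The p limit of the study's methods, 0.01 unadjusted with 1.5-fold, was an alternative. Sums were compared with exact permutation tests.

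Alternatives were DESeq2 1.42.0, RLE, upper quartile and library size scaling, other count filters, limma 3.58.1 with FPKM as log2(FPKM + 1) or log2(FPKM + 0.1), a block for the replicate number, and each library left out. The scripts were tested on simulated data. Genes were named by rule: DDX17, DDX5, those past 1.5-fold, the 6 largest called changes each way, the extremes of each list and the 5 most abundant. The other members and XPO5, TARBP2, SENP3, SENP3-EIF4A1, RFC4, CEP95, AARS and C1QBP were named besides, after their values were seen. The members and lists were chosen with earlier results of these data known. Positions and transcripts are from GENCODE release 44, matched by gene identifier. The siRNA site was located as the 19-base stretch that holds the sense seed itself and the match to the antisense seed in their places. Of the 10 DDX17 transcripts in that release, 5 held the site.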

Additional observations from a re-analysis of the deposited data

How the results depend on the processing

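The decrease of DDX17 ranged from -2.66 to -2.54 and the decrease of the summed FPKM of DDX17 and DDX5 from -30.9 to -23.5 when each library was left out. DDX5 ranged from -0.1584 to -0.0754 in these fits, and was 0.0138 with library size alone and 0.0186 and 0.0187 on log2(FPKM + 1) and log2(FPKM + 0.1). The helicases called higher numbered 9 to 11, those called lower 13 to 21, and those past 1.5-fold 4 to 5. Partners called higher numbered 20 to 31 and lower 33 to 44. The summed FPKM of the other helicases differed by 69.4 to 95.1, whereas their summed CPM differed by -66.6. The median log2 fold change of the helicases ranged from -0.1133 to -0.0379. With library size alone it was 0.0572, 9 helicases were lower, 7 passed 1.5-fold, and 40 partners were higher and 24 lower. On log2(FPKM + 1) and log2(FPKM + 0.1) the median was 0.0403 and 0.061, 8 helicases were lower on both, 7 passed 1.5-fold on the latter, and 21 partners were lower on both. The p limit of 0.01 with 1.5-fold left 2 helicases higher and 2 lower, and 4 partners higher and 6 lower. Of all tested genes, 11.0% were higher and 8.03% lower by that limit.

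With library size alone 12 uncalled genes changed sign, and on FPKM 13 did, the same 12 and DHX32. They included DDX5, DDX1, DDX19A, DDX20, DDX52, DDX59, DHX9 and DHX34. The others are given with library size alone, log2(FPKM + 1) and log2(FPKM + 0.1). DDX11 changed to 0.0185, 0.0197 and 0.0235, and DDX3X to 0.0733, 0.0778 and 0.0798. EIF4A3 changed to 0.0323, 0.0407 and 0.0411, and DHX57 to 0.0926, 0.0835 and 0.0954. DHX57 was also 0.0002 under upper quartile scaling and between -0.0509 and 0.0062 in the fits without 1 library. DHX58 was -0.0362 in DESeq2, -0.002 with no filter, and between -0.4159 and 0.7617 in the fits without 1 library. The causes of these shifts were not tested beyond the change of scaling itself.

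Libraries with the same number did not deviate together (correlations of 0.007, 0.041 and -0.056). The labels do not say whether samples with the same number were prepared as pairs, and these correlations cannot settle it. With the replicate number as a block, 12 helicases were higher, 16 lower and 5 past 1.5-fold, and DDX5 was at -0.11. Shares of all tested genes were not determined for this fit or for those on FPKM.

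Depth limited DHX58 and DDX26B, and the 4 genes that were not tested.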
